A study of Mus musculus with 12 samples.

Results

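Stimulated bone marrow-derived mast cells (BMMCs) labelled *Elk4* knockout (KO) were compared with stimulated BMMCs labelled wild type (WT). The comparison took 4 of the 12 RNA-seq libraries of the series, 2 of each genotype, which were chosen by their labels alone and described across all genes. Such cells are mast cells raised in culture out of mouse bone marrow, here for 4 to 8 weeks in IL-3 and stem cell factor, until over 80% of cells carried both CD117 and FcϵRI on their surface. The mice were C57BL/6N animals of both sexes, 6 to 12 weeks old, with a conventional *Elk4* knockout, and WT littermates served as controls. A conventional knockout is made in the germ line and is meant to affect every cell, so an effect in the culture cannot be told apart from one that arose earlier in the marrow. Both groups were loaded with anti-DNP IgE at 0.5 µg/ml overnight and then received the antigen DNP-HSA at 100 ng/ml for 1 h. Stimulated libraries labelled heterozygous (HZ, 2 libraries) and the unstimulated KO and WT libraries (4 in all) are given beside them where they bear on a result. The comparison asked which genes *Elk4* deficiency alters in activated mast cells.

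Mast cells carry IgE on FcϵRI, a receptor of an IgE-binding alpha chain, a beta chain and paired gamma chains. When antigen links the bound IgE, the kinases LYN and SYK start a cascade through the adaptor LAT that raises cytosolic calcium and switches on MAP kinases. Stored granules with histamine, serotonin, proteases and heparin are released within minutes, lipid mediators follow, and cytokine and chemokine genes are transcribed within the hour. ELK4 is a ternary complex factor (TCF), one of 3 ETS proteins that bind DNA together with serum response factor (SRF). MAP kinases phosphorylate these factors, which then drive immediate-early genes such as *Fos* and *Egr1*.

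*Elk4* itself was at 78.2 and 66.99 CPM (counts scaled by TMM and to a common library size) in the WT libraries and at 67.1 and 68.5 CPM in the KO libraries. The groups overlapped, and the log2 fold change of -0.10 (SE 0.06) had an adjusted p of 0.208 by edgeR's quasi-likelihood test. A count over the whole gene does not check the genotype label, because the deleted part of the allele is not given in the sources used here. The groups are therefore named by their labels. The paper reports that western blots showed the deletion at the protein level in cultured BMMCs of each genotype. Whether the blotted cultures were those sequenced is not stated. The other ternary complex factors were at 31.6 and 33.3 CPM in WT against 27.7 and 29.99 CPM in KO for *Elk1* and at 29.1 and 32.9 CPM against 29.7 and 29.6 CPM for *Elk3*, and neither passed the test.

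The 4 libraries held 30846198 to 32970996 counts on genes, and the biological coefficient of variation among replicates was 4.01%. No source states that replicates are separate animals or cultures, so p-values measure the spread between these libraries, which may be technical. The summed level of 13 mast cell markers was alike, at 63387 and 63069 CPM in WT and 63258 and 63872 CPM in KO, although *Mcpt4* was higher and *Hdc* lower. At an adjusted p below 0.05 with no fold threshold, 5 of the markers were higher and 6 lower. Over all 12208 genes tested, 2588 were higher and 2339 lower by that measure. The lymphocyte, neutrophil and stromal lists had 2 members at most above the filter on low counts. *Cd3d*, *Cd4*, *Ly6g*, *Ltf*, *Flt3*, *C1qa*, *Mrc1* and *Col1a1* had 0 counts in all 4 libraries, which allows up to 0.108 CPM. The macrophage list (15 markers, 9 tested) passed 3 members higher and 2 lower, with summed levels of 93.8 to 95.8 CPM in WT and 108 to 119 CPM in KO. Without *F13a1*, which is described below, the other 8 summed to 93.1 to 95.2 CPM in WT and to 51.8 to 59.6 CPM in KO, most of it *Cx3cr1*. The dendritic list had only *Itgax* above the filter, at 4.31 and 5.003 CPM in WT and 0.791 and 1.32 CPM in KO. In bulk RNA, fewer cells of a type and less RNA of a gene per cell cannot be told apart.

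Of 12208 genes tested, 664 (5.44%) passed as higher in KO and 882 (7.22%) as lower, where the adjusted p had to be under 0.05 and the fold 1.5 or more, or 0.66 or less. Most differences were moderate. The median fold was 2.17 among the higher genes and 2.38 among the lower ones. A difference of at least 4-fold was seen in 158 higher and 228 lower genes, and one of at least 8-fold in 80 and 112. The median log2 fold change of all genes tested was 0.02, so the differences were centred close to 0. Counts of list members that passed both thresholds are read against the shares of 5.44% and 7.22%. Counts by adjusted p alone are read against 2588 higher and 2339 lower of the 12208 genes.

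**Figure D1:**
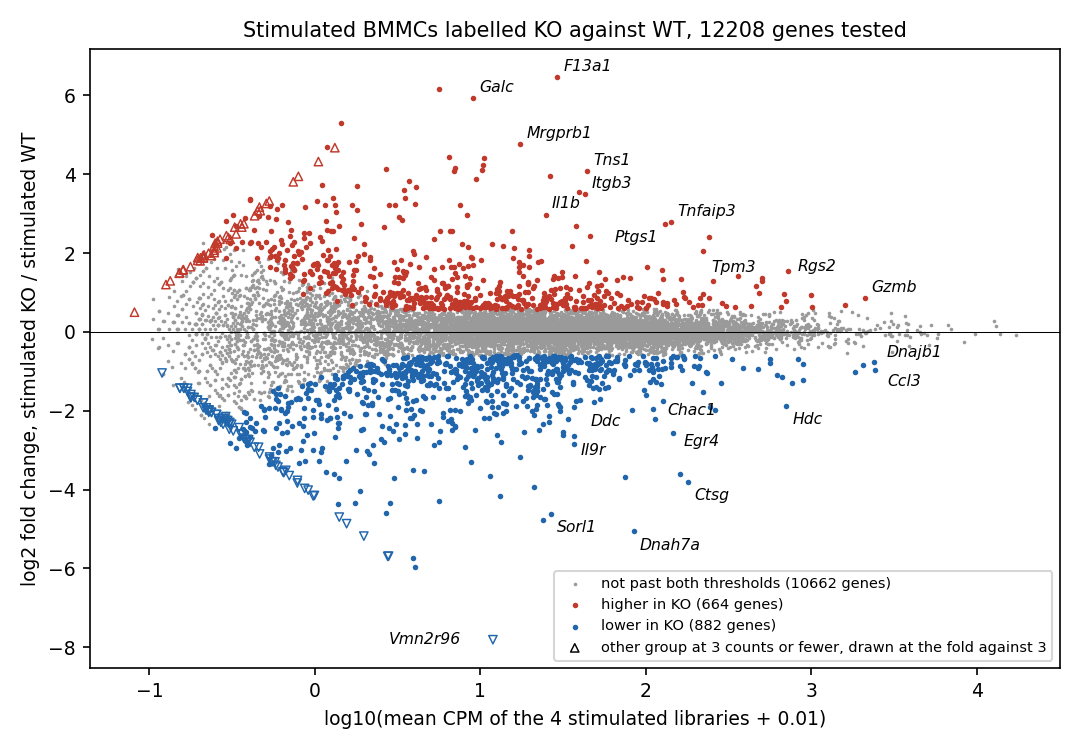
Log2 fold change of stimulated KO over stimulated WT (vertical axis) against the mean level of the 4 libraries in CPM on a log10 scale (horizontal axis). Each point is a gene, red where it was higher in KO (664 genes), blue where lower (882), grey otherwise, and triangles are genes with 3 counts or fewer in each library of the other group, drawn at the fold against 3 counts. Genes past the thresholds occur at low and high levels alike, and 169 genes with too few counts for a fold are not drawn.

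The 12 genes with the largest rise in KO, among those with at least 100 counts in the higher group, were low in WT. Beside *F13a1*, the A subunit of coagulation factor XIII, *Gpr65*, an acid-sensing receptor, and *Galc*, a lysosomal galactosylceramidase, they included *Mrgprb1*, *Syn2*, *Olfr1033*, *Tspan32*, *Nrgn*, *Cd300ld5*, *Tspan8*, *Tns1* and *Gcsam*. *Mrgprb1* (NCBI Gene 233231), one of the Mas-related receptors of connective tissue mast cells, was at 1.25 and 1.21 CPM in WT and 33.6 and 33.6 CPM in KO. It was 27.3-fold higher, with an adjusted p of 5.21e-30. *Tns1* (21961), which links integrins to actin, was at 5.52 and 4.33 CPM in WT and 83.7 and 82.6 CPM in KO. *Tspan32* and *Tspan8*, both tetraspanins of the cell membrane, were at 21.2 and 17.96 CPM and 18.8 and 19.9 CPM in KO, against 1.18 and 0.907 CPM and 1.18 and 1.07 CPM in WT. *Syn2* and *Nrgn*, known for roles at synapses, were at 12.1 and 12.7 CPM and 15.1 and 11.4 CPM against 0.101 and 1.04 CPM and 0.774 and 0.705 CPM. *Cd300ld5* was at 3.56 and 6.64 CPM in the KO libraries, and it belongs to a family of like sequences that can share reads, as do *Mrgprb1* and *Olfr1033*. That no WT library reached a KO library was part of the rule by which these 12 were chosen. The position of HZ was not counted over all genes, and this rule leaves a wide gap between WT and KO. In 11 of the 12 both HZ libraries lay between WT and KO. *F13a1*, for example, was at 22.98 and 26.3 CPM in HZ, with 0.606 and 0.705 CPM in WT and 56.1 and 59.8 CPM in KO. *Cd300ld5* was the exception, with 0.244 and 0.101 CPM in HZ.

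The 12 genes with the largest fall in KO, chosen by the same rule, all stood at under 6 CPM there. Beside *Rbfox1*, *Vmn2r96* and *Capn11*, they were *Clec2i*, *Map9*, *Jaml*, *Dnah7a*, *Lhfpl1*, *Sorl1*, *LOC115490200*, *Atp9a* and *Sh3pxd2a*. *Dnah7a* (627872), an axonemal dynein heavy chain, was at 167 and 162 CPM in WT, 13.4 and 14.2 CPM in HZ and 4.35 and 5.49 CPM in KO, and was 33.3-fold lower in KO (adjusted p = 1.05e-40). *Sorl1* (20660), a sorting receptor of endosomes, was at 52.6 and 50.2 CPM in WT, 8.53 and 7.17 CPM in HZ and 2.52 and 1.703 CPM in KO. *Lhfpl1*, a membrane protein of unknown role, was at 47.4 and 44.6 CPM in WT and 1.55 and 1.81 CPM in KO. *Map9*, which binds spindle microtubules, was covered by 224 and 236 reads in the WT libraries, by 4 and 1 in HZ and by 5 and 3 in KO. *Jaml*, a junction adhesion molecule of leukocytes, was covered by 122 and 107 reads in WT and by 2 and 3 in KO, and *Clec2i*, a C-type lectin, by 158 and 168 and 3 and 2. Counts this low in KO leave the size of such a fold uncertain. Both HZ libraries lay between WT and KO in 6 of the 12 and at or below KO in 5, with 1 overlapping. No count over all genes stands beside these.

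Immediate-early factors are the first genes to be transcribed after receptor signalling, and several are known targets of the TCF and SRF pair. In stimulated cells 14 of the 34 factors tested were higher and 12 lower in KO at an adjusted p below 0.05, most of them by less than the fold threshold. By adjusted p alone 2588 of all 12208 genes were higher and 2339 lower. The 5 that were higher past it (14.7%, against 5.44% of all genes) were *Klf2*, *Nr4a2*, *Klf10*, *Maff* and *Jund*, and the 3 that were lower (8.82%, against 7.22%) were *Egr4*, *Fosl1* and *Btg2*. The median log2 fold change of the list was 0.02, beside 0.02 over all genes. *Egr4* (13656), a zinc-finger factor of the EGR family, was at 248 and 256 CPM in WT, 66.6 and 66.9 CPM in HZ and 45.03 and 39.3 CPM in KO. It was 5.97-fold lower in KO (log2 fold change -2.58, SE 0.07, adjusted p = 3.54e-33), with every WT library above every HZ and KO library. *Klf2* (16598), a Krüppel-like factor that restrains inflammatory genes, was at 70.4 and 73.03 CPM in WT, 185 and 189.97 CPM in HZ and 179.9 and 186 CPM in KO. It was 2.55-fold higher in KO (adjusted p = 1.25e-28), and HZ was at the level of KO. *Nr4a2*, an orphan nuclear receptor, was at 692 and 692 CPM in WT and 1312 and 1316 CPM in KO. *Fosl1*, an AP-1 subunit, was at 26.7 and 25.9 CPM in WT and 13.3 and 13.1 CPM in KO, and *Btg2*, an inhibitor of proliferation, at 269 and 274 CPM and 142 and 146 CPM. *Maff*, a small MAF protein, was at 36.4 and 39.8 CPM and 59.2 and 61.6 CPM, and *Jund*, the JUN family member found in resting cells, at 771 and 806 CPM and 1236 and 1218 CPM.

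The factors most often followed as ternary complex targets were near level after stimulation. *Fos* was at 538 and 548 CPM in WT and 516 and 511 CPM in KO, *Egr1* at 5869 and 6019 CPM and 5744 and 5747 CPM, and *Egr3* at 13855 and 14293 CPM and 13718 and 13570.3 CPM. *Nr4a1* was at 6787 and 6940.4 CPM in WT and 7222 and 7239 CPM in KO. For all 4 the log2 fold change lay between -0.08 and 0.08. *Egr2* was at 3632 and 3622 CPM in WT and 2530.3 and 2556 CPM in KO, 1.43-fold lower with an adjusted p of 4.54e-22, a separation of the libraries that fell short of the fold threshold. *Jun* was at 1447 and 1465 CPM in WT and 2075 and 2071 CPM in KO, 1.42-fold higher, which also fell short of it. Per gene length, *Egr3* had 3029 and 3123 FPKM in WT and 2993 and 2959 FPKM in KO, against 104 and 108 FPKM and 18.9 and 16.5 FPKM for *Egr4*, so of this pair the member with the large difference had the lower level.

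Before stimulation more of the list was lower in KO. Of the 34 factors, 13 were lower in unstimulated KO than in unstimulated WT (7.72% of all genes were) and 3 were higher (4.96% of all genes were), with a median log2 fold change of -0.29. The test of the difference between the stimulated and the unstimulated difference was past an adjusted p of 0.05 for 23 of the 34. It was positive, meaning KO stood higher relative to WT after stimulation than before, for 20 of the 34 (5.44% of all genes), and negative for 3 (3.83% of all genes). *Nr4a1* was at 325 and 324 CPM in unstimulated WT and 121 and 126 CPM in unstimulated KO, a log2 fold change of -1.40, and the differences in the 2 states differed by 1.47 (SE 0.03, adjusted p = 8.09e-36). *Egr1* was at 693 and 679 CPM in unstimulated WT and 359.5 and 342 CPM in unstimulated KO, and *Fos* at 15.7 and 14.3 CPM and 6.75 and 5.89 CPM. *Egr4* was at 12.5 and 10.1 CPM in unstimulated WT and 1.01 and 0.761 CPM in unstimulated KO, and remained low in KO in both states. *Klf10*, a factor induced by TGF-beta, went the other way: it was at 37.2 and 34.4 CPM in unstimulated WT and 109 and 112 CPM in unstimulated KO, and the states differed by -0.80.

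**Figure D2:**
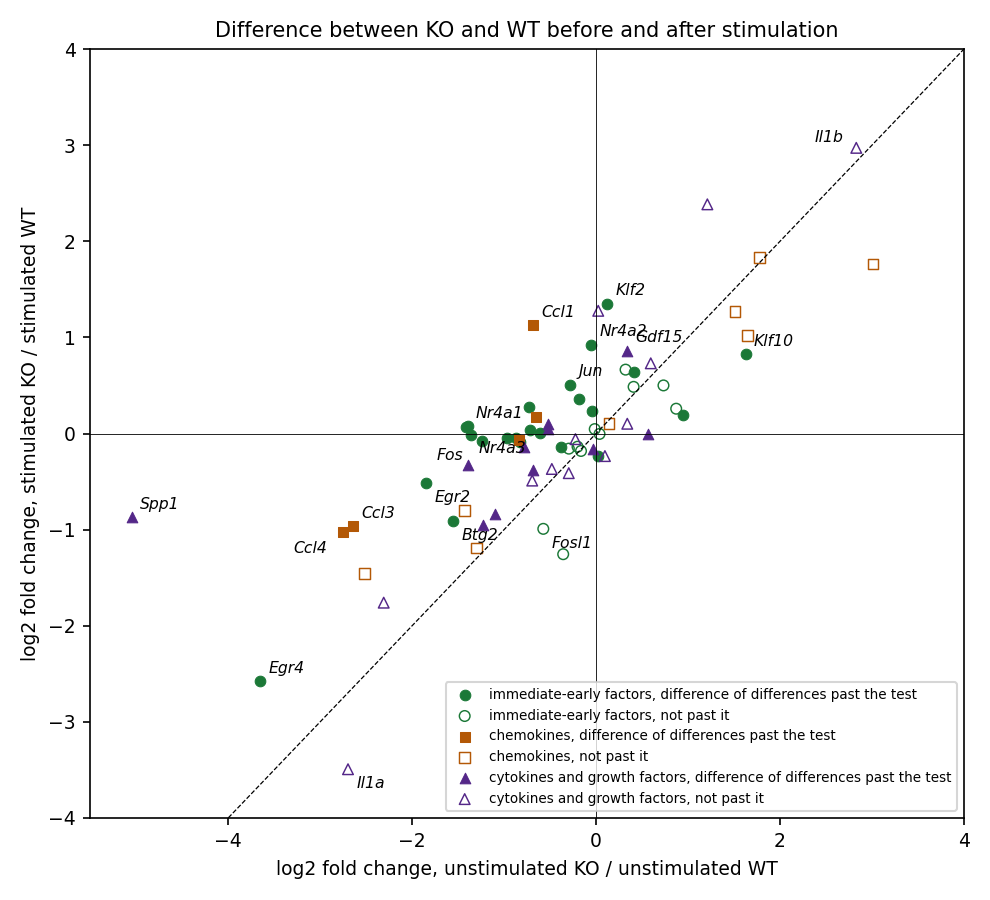
Log2 fold change of KO over WT in stimulated libraries (vertical axis) against the same in unstimulated libraries (horizontal axis), for 34 immediate-early factors (circles), 13 chemokines (squares) and 23 cytokines and growth factors (triangles) with over 3 counts in at least 1 library of each state. Filled symbols passed the test of the difference between states, the dashed line marks equal differences, and most filled symbols lie above it, among them *Nr4a1*, *Ccl3* and *Spp1*.

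Promoter windows were read from RefSeq (GRCm38.p6, the bases just before the start of a gene and the first of the gene) to show the letters around the starts of genes that the comparison turns on. Windows were found for 511 of the 664 higher genes, 698 of the 882 lower genes and 9828 of all genes tested. Motifs were searched on both strands, and a gene counted where any of its windows held the motif. Shares are of genes with a window. The ETS motif CCGGAA was in 18.8% of higher genes, 20.5% of lower genes and 31.9% of all genes tested. The longer form CCGGAAGT, which contains CCGGAA, was in 2.94%, 4.30% and 9.33%. The CArG box of SRF was in 1.96%, 2.29% and 1.5%, and the E-box CANNTG, a motif bound by MITF and many other factors, in 72.0%, 69.1% and 67.2%. These shares are a description, and a match is not evidence of binding. The windows of *Hdc* (chr2:126618629-126618928, minus strand), *Ccl3* (chr11:83649329-83649628, minus strand), *Egr4* (chr6:85513540-85513839, minus strand) and *Klf2* (chr8:72318812-72319111, plus strand) are printed because the results on mediators and early factors turn on these genes. They are given 5′ to 3′ along the gene, with each CANNTG in capitals. None of the 4 held CCGGAA, CCGGAAGT or a CArG box. Shorter or looser ETS sites were not searched, so their absence is not shown.
Hdc: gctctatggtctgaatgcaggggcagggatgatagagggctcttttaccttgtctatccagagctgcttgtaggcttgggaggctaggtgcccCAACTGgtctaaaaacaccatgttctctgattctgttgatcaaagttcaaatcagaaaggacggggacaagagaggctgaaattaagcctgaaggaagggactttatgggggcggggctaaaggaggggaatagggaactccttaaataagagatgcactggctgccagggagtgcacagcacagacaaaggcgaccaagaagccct
Ccl3: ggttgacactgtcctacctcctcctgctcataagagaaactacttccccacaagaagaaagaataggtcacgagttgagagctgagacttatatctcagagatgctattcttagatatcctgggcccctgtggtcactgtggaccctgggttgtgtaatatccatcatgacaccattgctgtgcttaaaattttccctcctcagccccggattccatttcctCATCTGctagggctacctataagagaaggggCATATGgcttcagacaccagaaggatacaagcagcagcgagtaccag
Egr4: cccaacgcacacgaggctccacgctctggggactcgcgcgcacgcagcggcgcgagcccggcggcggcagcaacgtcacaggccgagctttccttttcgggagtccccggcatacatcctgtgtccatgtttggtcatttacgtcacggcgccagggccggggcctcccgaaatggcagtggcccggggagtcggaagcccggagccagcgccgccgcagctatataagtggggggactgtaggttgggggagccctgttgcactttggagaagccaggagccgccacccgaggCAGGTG
Klf2: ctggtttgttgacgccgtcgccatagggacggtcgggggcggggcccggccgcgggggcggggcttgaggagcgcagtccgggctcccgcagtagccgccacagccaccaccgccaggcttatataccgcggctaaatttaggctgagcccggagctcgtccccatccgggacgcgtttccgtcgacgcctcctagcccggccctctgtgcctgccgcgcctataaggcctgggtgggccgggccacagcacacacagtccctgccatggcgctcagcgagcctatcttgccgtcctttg

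Among 20 TCF, SRF and ETS factors tested, none was higher in KO by edgeR or by DESeq2 (1 with no fold threshold at a p below 0.05, adjusted or not) and 4 were lower, *Ets1*, *Ets2*, *Etv4* and *Etv5*, with a list median of -0.11. *Ets1*, the founding ETS factor, was at 28.4 and 27.7 CPM in WT, 12.8 and 13.5 CPM in HZ and 7.94 and 8.76 CPM in KO, 3.36-fold lower (adjusted p = 8.04e-17). *Etv5*, a PEA3-group factor downstream of MAP kinases, was at 41.3 and 42.8 CPM in WT and 24.5 and 20.7 CPM in KO, and *Ets2*, a MAP kinase-responsive factor, at 55.9 and 56.2 CPM and 32.9 and 32.1 CPM. *Etv4* was at 1.14 and 0.672 CPM in WT and 0.252 and 0.278 CPM in KO, a low level at which its call (adjusted p = 0.0248) was lost under other settings. *Srf* was level, at 120.4 and 124 CPM in WT and 125 and 119 CPM in KO.

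SRF also drives genes of the actin cytoskeleton with its other partners. Of 24 such genes tested, 2 were higher (8.33%, against 5.44% of all genes) and 4 lower (16.7%, against 7.22%). One of the higher genes, *Tpm2*, was at 0.202 and 0.101 CPM in WT and 0.288 and 1.18 CPM in KO, and its call was lost without WT replicate 2 (log2 fold change 1.85) or KO replicate 2 (0.91). Leaving out 1 library gave 1 to 3 higher genes in this list. The tropomyosins split, with *Tpm3* at 277 and 288 CPM in WT and 724 and 721 CPM in KO and *Tpm4* at 10.3 and 13.3 CPM and 2.41 and 2.05 CPM. *Tpm3* was 2.56-fold higher and *Tpm4* 5.28-fold lower, and in both genes HZ (723 and 718 CPM and 1.68 and 2.06 CPM) was at the level of KO. *Fhl2*, a LIM protein that binds SRF cofactors, was at 33.97 and 35.4 CPM in WT and 12.04 and 9.903 CPM in KO, and *Cnn2*, a calponin, at 209 and 211 CPM and 129 and 129.7 CPM. The study also used a list of 75 fibroblast genes with bound TCFs, taken from an earlier publication. That list held 3 higher genes (*Arl5b*, *Armc9* and *Ddah2*) and 1 lower gene (*Pnma1*), shares of 4.00% and 1.33% against 5.44% and 7.22% of all genes. Its median log2 fold change was 0.05. *Arl5b*, a small GTPase of the Golgi, was at 518 and 513 CPM in WT and 804 and 799 CPM in KO.

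Chemokines recruit other leukocytes to the site of mast cell activation. Of 15 tested, 4 were higher in KO (26.7%, against 5.44% of all genes) and 3 lower (20%, against 7.22%). *Ccl3* (20302) and *Ccl4* (20303), neighbouring genes for macrophage inflammatory proteins, were lower together. *Ccl3* was at 3156 and 3263 CPM in WT, 1921 and 2023 CPM in HZ and 1651 and 1646 CPM in KO, 1.95-fold lower (log2 fold change -0.96, SE 0.03, adjusted p = 9.12e-33). *Ccl4* was at 2438 and 2498 CPM in WT, 1389 and 1463 CPM in HZ and 1202 and 1228 CPM in KO, 2.03-fold lower. Both were much further apart before stimulation, with *Ccl3* at 90.6 and 91.01 CPM in unstimulated WT and 14.5 and 14.5 CPM in unstimulated KO. The deficit in KO shrank with stimulation, by 1.68 on the log2 scale for *Ccl3* (adjusted p = 2.35e-30) and by 1.73 for *Ccl4* (adjusted p = 1.94e-25). *Ccl1*, which attracts monocytes and T helper cells, went the other way, with 25.5 and 30.4 CPM in WT, 50.9 and 52.4 CPM in HZ and 58.9 and 63.1 CPM in KO. It was 2.18-fold higher in stimulated KO, and it was at 0.966 and 1.401 CPM in unstimulated WT against 0.667 and 0.817 CPM in unstimulated KO. *Ccl9* was at 8.82 and 6.61 CPM in WT and 19.2 and 18.03 CPM in KO, and *Cxcl2*, which attracts neutrophils, at 4.51 and 2.99 CPM and 8.09 and 8.79 CPM. *Ccl2* and *Ccl7*, which draw in monocytes, fell short of the fold threshold, at 3831 and 3926 CPM and 3131 and 3119.7 CPM in WT and 3679 and 3718 CPM and 3474 and 3592 CPM in KO.

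Of 29 cytokine and growth factor genes tested, 5 were higher and 5 lower in KO (17.2% each), and the median log2 fold change was -0.16. The paired IL-1 genes moved in opposite directions. *Il1b* was at 4.61 and 6.61 CPM in WT, 36.5 and 37.4 CPM in HZ and 45.00 and 43.3 CPM in KO, 7.86-fold higher (adjusted p = 9.7e-25), while *Il1a* was at 7.103 and 7.29 CPM in WT, 2.44 and 2.13 CPM in HZ and 0.467 and 0.799 CPM in KO, 11.3-fold lower (adjusted p = 4.25e-11). Among the abundant genes, *Osm*, an IL-6 family cytokine, was at 2621 and 2660.3 CPM in WT and 1495 and 1457 CPM in KO, and *Tnfsf8*, the ligand of CD30, at 629.7 and 627 CPM and 316 and 333 CPM. *Tnfsf4*, the OX40 ligand, was at 18.04 and 18.3 CPM in WT and 4.82 and 5.91 CPM in KO. *Gdf15*, a stress-induced TGF-beta family member, was higher, at 165 and 178 CPM in WT and 320.1 and 304 CPM in KO. *Adcyap1*, which encodes the neuropeptide PACAP, stood at 11 and 8 counts in WT and 74 and 96 counts in KO. *Ltb* and *Inhba* also passed as higher and *Spp1* as lower, all at under 10 CPM. The *Ltb* call was lost without KO replicate 1 (log2 fold change 1.36) and that of *Spp1* without WT replicate 2 (-0.69).

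Other cytokines of mast cells did not pass the fold threshold. *Il6* was at 1329.5 and 1329 CPM in WT and 1361 and 1394 CPM in KO, with a log2 fold change of 0.05 (SE 0.03). *Tnf* was at 4324 and 4452 CPM in WT and 3363 and 3433 CPM in KO, 1.29-fold lower with an adjusted p of 7.06e-16, and *Il13* at 1233 and 1265 CPM and 958 and 968 CPM, 1.297-fold lower. *Lif* was at 5804 and 5767 CPM in WT and 4601 and 4591 CPM in KO, and *Csf1* at 4112 and 4219.8 CPM and 3771 and 3808 CPM. *Csf2* and *Il4* were at 23.4 and 26.1 CPM and 21.2 and 21.9 CPM in WT and at 25.2 and 23.2 CPM and 21.7 and 24.5 CPM in KO. In *Tnf*, *Il13*, *Lif* and *Csf1* the KO libraries all lay below the WT libraries.

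**Figure D3:**
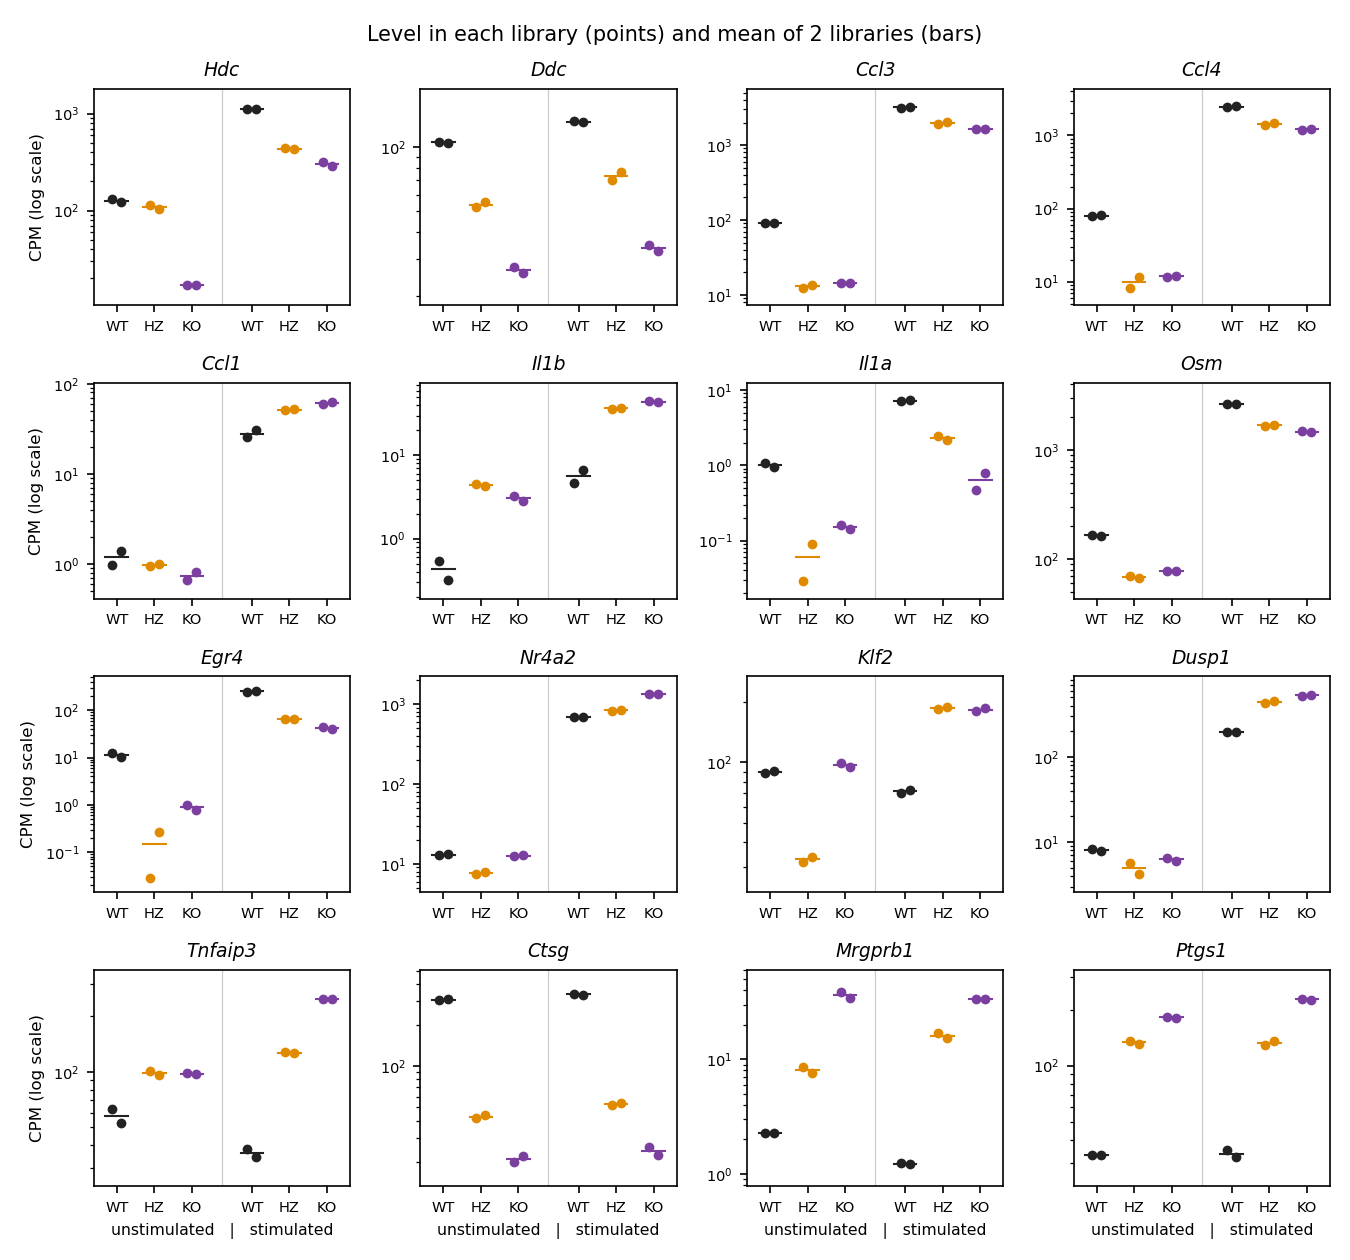
Level of 16 genes in each unstimulated and stimulated library, in CPM on a log scale, with 2 points per group and a bar at their mean (black WT, orange HZ, purple KO). *Hdc*, *Ddc*, *Ccl3*, *Ccl4*, *Il1a*, *Osm*, *Egr4* and *Ctsg* are lower in stimulated KO than in stimulated WT, and *Ccl1*, *Il1b*, *Nr4a2*, *Klf2*, *Dusp1*, *Tnfaip3*, *Mrgprb1* and *Ptgs1* are higher, with no overlap between KO and WT. All 16 passed both thresholds, and 663 of the 664 higher and 882 of the 882 lower genes had no overlap, so this came with the choice of genes.

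Amine mediators depend on a few enzymes. *Hdc* (15186), the enzyme that makes histamine from histidine, was at 1116 and 1106 CPM in WT, 439.6 and 432 CPM in HZ and 316 and 290.5 CPM in KO. It was 3.67-fold lower in KO (log2 fold change -1.87, SE 0.04, adjusted p = 2.23e-38). Unstimulated libraries held 131 and 122 CPM in WT and 16.9 and 17.1 CPM in KO, a log2 fold change of -2.89, so the deficit was smaller by 1.02 after stimulation (adjusted p = 1.45e-17). *Ddc* (13195), the decarboxylase of the last step to serotonin, was at 133 and 131 CPM in WT, 70.4 and 76.99 CPM in HZ and 34.8 and 32.5 CPM in KO, 3.93-fold lower, and unstimulated libraries held 107 and 105 CPM in WT and 27.3 and 25.6 CPM in KO. *Tph1*, which catalyses the first step to serotonin, was level at 4603 and 4535 CPM in WT and 4557 and 4566 CPM in KO. *Slc18a2*, the transporter that loads amines into granules, was 1.34-fold higher in KO, at 1661 and 1626 CPM in WT and 2198 and 2211 CPM in KO, below the fold threshold. *Slc6a4*, which takes serotonin up, and *Maoa*, which degrades it, passed as higher at low level, with 1.14 and 0.638 CPM and 2.42 and 3.06 CPM in WT and 2.66 and 2.61 CPM and 4.53 and 5.42 CPM in KO.

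Of 12 granule proteases tested, 4 were higher in KO (33.3%, against 5.44% of all genes) and 1 lower (8.33%, against 7.22%), with a list median of 0.32. The one lower gene, *Ctsg* (13035), which encodes cathepsin G, had the smallest adjusted p of all genes tested. It was at 338 and 334 CPM in WT, 52.3 and 54.02 CPM in HZ and 25.8 and 22.6 CPM in KO, 13.9-fold lower (adjusted p = 5.54e-44), and was at 305 and 307 CPM and 19.9 and 22.04 CPM before stimulation. *Gzmb*, granzyme B, was at 1496 and 1514 CPM in WT, 2449 and 2529 CPM in HZ and 2705 and 2749 CPM in KO, 1.81-fold higher. Its neighbours *Mcpt2*, *Mcpt4* and *Mcpt8* were at 10.97 and 10.01 CPM, 21.7 and 19.2 CPM and 5.76 and 5.07 CPM in WT and at 23.5 and 23.7 CPM, 35.8 and 32.8 CPM and 9.85 and 11.05 CPM in KO. The bulk proteases differed little: *Cpa3*, carboxypeptidase A3, was at 17812 and 17607 CPM in WT and 16649.9 and 16920.2 CPM in KO, *Cma1*, a chymase, at 11538 and 11519 CPM and 13733 and 14051 CPM, and *Tpsb2*, a tryptase, at 9087 and 9242 CPM and 7694 and 7747 CPM. Proteases of one family share long stretches of sequence, so reads may have been split among them.

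Of 24 genes for serglycin and its glycosaminoglycan chains, *Csgalnact1* was higher (4.17%, against 5.44% of all genes) and *Ext1*, a heparan sulphate polymerase, lower (4.17%, against 7.22%). *Srgn* itself, the granule core protein, was at 3777 and 3851 CPM in WT and 3579 and 3617 CPM in KO. Of 36 genes of the secretion machinery, 5 were higher (13.9%, against 5.44% of all genes) and 2 lower (5.56%, against 7.22%). *Syngr1*, a synaptic vesicle protein, was at 2.93 and 3.49 CPM in WT, 18.8 and 21.5 CPM in HZ and 50.7 and 48.4 CPM in KO, 15.4-fold higher (adjusted p = 8.92e-32). *Exoc3l*, an exocyst relative, was at 5.08 and 5.04 CPM in WT, 8.56 and 8.69 CPM in HZ and 11.6 and 11.4 CPM in KO. The paper reports increases of both genes, and of *Cadm1* and *Vcl*, by RT-qPCR in KO BMMCs. In the stimulated libraries compared here, *Cadm1* and *Vcl* were tested and neither passed both thresholds in either direction. *Mlph*, melanophilin, which tethers granules to a myosin, was at 26.4 and 24.2 CPM in WT and 51.1 and 55.4 CPM in KO, and *Syt11* and *Stxbp3* were the other higher members. *Sytl2*, a RAB27 effector, was lower, at 153 and 147 CPM in WT and 60.8 and 63.9 CPM in KO, as was *Syt9*, at 14.9 and 18.2 CPM and 6.36 and 6.88 CPM. Of 29 lysosomal genes, 2 were higher (6.9%, against 5.44% of all genes) and 2 lower (6.9%, against 7.22%). *Cd63*, a tetraspanin of granule membranes, was at 1217 and 1225 CPM in WT and 1955 and 1986 CPM in KO. *Atp6v0d2*, a proton pump subunit, was at 43.6 and 41.6 CPM in WT and 9.02 and 10.3 CPM in KO.

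Of 14 genes for eicosanoid synthesis, 1 was higher (7.14%, against 5.44% of all genes) and 1 lower (7.14%, against 7.22%). *Ptgs1* (19224), cyclooxygenase 1, was at 35.1 and 32.4 CPM in WT, 129 and 135 CPM in HZ and 228 and 225 CPM in KO, 6.71-fold higher (adjusted p = 5.42e-40). *Ptgs2*, the inducible cyclooxygenase, was 1.36-fold higher and short of the fold threshold, at 757 and 739.8 CPM in WT and 1019 and 1018 CPM in KO. *Ltc4s*, leukotriene C4 synthase, was lower, at 39.5 and 41.5 CPM in WT and 25.4 and 24.3 CPM in KO, while *Alox5*, the enzyme that starts leukotriene synthesis, was at 3709.8 and 3788 CPM and 3853 and 3839 CPM.

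The IgE receptor itself was close to level. *Fcer1a*, its alpha chain, was at 4368 and 4298 CPM in WT and 4786 and 4764 CPM in KO, *Ms4a2*, the beta chain, at 1489 and 1467 CPM and 1490.2 and 1501 CPM, and *Fcer1g*, the gamma chain, at 359 and 361 CPM and 379 and 386 CPM. Of 40 genes of this receptor's signalling tested, 7 were higher (17.5%) and 3 lower (7.5%), with a list median of 0.07. Of the kinases, *Lyn* and *Syk* were at 217 and 214 CPM and 109.7 and 103 CPM in WT and at 208 and 219 CPM and 111 and 101 CPM in KO. *Fyn*, another SRC-family kinase at the receptor, was lower, at 63.8 and 58.3 CPM in WT, 50.1 and 49.3 CPM in HZ and 34.9 and 33.04 CPM in KO (adjusted p = 5.13e-15). *Tec*, a kinase of the BTK family, was at 30.6 and 27.2 CPM in WT and 46.5 and 43.3 CPM in KO. Of the adaptors *Grap2* was higher, at 23.5 and 22.5 CPM in WT and 38.9 and 37.8 CPM in KO, as were *Sh3bp2*, at 10.9 and 10.9 CPM and 21.2 and 20.1 CPM, and *Pag1*, which recruits the inhibitory kinase CSK, at 48.7 and 48.02 CPM and 78.4 and 81.1 CPM. *Lat*, the central adaptor, was at 280.1 and 269.9 CPM in WT and 299.6 and 314 CPM in KO, short of the fold threshold. *Rasgrp1*, which activates RAS downstream of the receptor, was lower, at 24.04 and 26.3 CPM in WT and 13.98 and 12.7 CPM in KO. *Rgs13*, which limits signalling by G protein-coupled receptors, was at 8.35 and 11.4 CPM in WT and 21.1 and 19.5 CPM in KO. *Pik3r5* passed as lower at under 1 CPM. The *Tec* call was lost without WT replicate 2, at a log2 fold change of 0.55. In calcium signalling, of 22 genes tested *Orai1*, the pore of store-operated calcium entry, was 1.53-fold higher, at 20.4 and 24.7 CPM in WT and 34.8 and 34.5 CPM in KO, and *Atp2b4*, a calcium pump of the cell membrane, 1.997-fold lower, at 36.3 and 40.8 CPM and 17.2 and 21.4 CPM. Without WT replicate 1 *Orai1* fell short of the fold threshold (log2 fold change 0.48).

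Of 35 surface receptors of mast cells tested, 3 were higher (8.57%, against 5.44% of all genes) and 1 lower (2.86%, against 7.22%). The higher ones were *Gpr65* and the Mas-related receptors *Mrgprb1*, given above, and *Mrgprb2* (243979), which is known as the receptor for compound 48/80 and other cationic drugs. *Mrgprb2* was at 17.7 and 16.8 CPM in WT, 43.5 and 41.9 CPM in HZ and 46.8 and 43.95 CPM in KO, 2.62-fold higher (adjusted p = 1.3e-20). *Il9r*, the receptor of the mast cell growth factor IL-9, was at 62.9 and 64.7 CPM in WT, 29.98 and 24.8 CPM in HZ and 9.201 and 11.2 CPM in KO, 6.26-fold lower (adjusted p = 4.59e-29). *Kit*, the receptor of stem cell factor, was at 4698 and 4685 CPM in WT and 4529 and 4468 CPM in KO, and *Il1rl1*, the IL-33 receptor, at 6403 and 6230.4 CPM and 7049 and 7091 CPM, and both fell short of the fold threshold.

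Chemoattractant receptors were lower more often. Of 16 tested, 6 were lower in KO (37.5%, against 7.22% of all genes) and 2 higher. The pair of leukotriene B4 receptors were both lower, with *Ltb4r1* at 20.8 and 19.7 CPM in WT and 3.23 and 6.22 CPM in KO and *Ltb4r2* at 13.6 and 16.2 CPM and 7.55 and 5.59 CPM. The pair of C5a receptors were lower as well, with *C5ar1* at 28.8 and 27.5 CPM in WT and 11.4 and 10.2 CPM in KO and *C5ar2* at 69.3 and 72.02 CPM and 36.9 and 36.8 CPM. *C5ar2* did not pass before stimulation, at 23.4 and 24.8 CPM in WT and 22.7 and 22.9 CPM in KO, and the states differed by -0.86 (adjusted p = 2.93e-08). *Cx3cr1*, the fractalkine receptor, was at 78.5 and 75.01 CPM in WT and 34.04 and 36.4 CPM in KO, and *Ccr1*, a receptor of several of these chemokines, at 318 and 314 CPM and 209 and 207 CPM. *Ccrl2*, an atypical receptor that presents chemerin, was higher, at 13.2 and 12.99 CPM in WT, 33.6 and 31.7 CPM in HZ and 56.7 and 60.9 CPM in KO, 4.495-fold (adjusted p = 9.69e-24). *Ccrl2* was at 3.53 and 3.001 CPM in unstimulated WT and 5.07 and 4.26 CPM in unstimulated KO, so its difference was larger after stimulation by 1.65. *Ccr3* also passed as higher, at 1.11 and 1.28 CPM in WT and 2.08 and 2.75 CPM in KO. The *Ccr3* call was lost without WT replicate 1, WT replicate 2 or KO replicate 2 (log2 fold change 0.80 to 1.12), and that of *Ccr1* without WT replicate 1 or KO replicate 2 (-0.59 in both cases).

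Feedback inhibitors of MAP kinases were divided, with 4 of 19 higher (21.1%, against 5.44% of all genes) and 4 lower (21.1%, against 7.22%). *Dusp1*, a phosphatase of p38 and JNK, was at 196 and 197 CPM in WT, 426 and 447 CPM in HZ and 522 and 535 CPM in KO, 2.69-fold higher (adjusted p = 1.24e-32). It was at 8.21 and 7.86 CPM in unstimulated WT and 6.56 and 6.03 CPM in unstimulated KO, and the states differed by 1.78. *Dusp6*, a phosphatase of ERK, was lower, at 498 and 516 CPM in WT and 268 and 269 CPM in KO, and so was *Errfi1*, an inhibitor of the EGF receptor, at 856 and 834 CPM and 396 and 394 CPM. The Sprouty genes split, with *Spry1* at 7.41 and 7.69 CPM in WT and 33.7 and 30.4 CPM in KO and *Spry4* at 3.47 and 2.99 CPM and 0.755 and 0.382 CPM. Regulators of G protein signalling split too, with *Rgs2* at 370.4 and 367 CPM in WT and 1066 and 1080.2 CPM in KO and *Rgs16* at 81.97 and 79.4 CPM and 24.98 and 24.8 CPM. For both *Dusp1* and *Rgs2*, HZ lay between WT and KO.

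Of 25 NF-kappa B genes tested, 4 were higher in KO (16%) and none lower by edgeR or by DESeq2 (3 with no fold threshold at a p below 0.05, adjusted or not). *Tnfaip3* (21929), which encodes A20, a brake on NF-kappa B, was at 37.9 and 34.2 CPM in WT, 128 and 126 CPM in HZ and 250.1 and 248 CPM in KO, 6.900-fold higher (adjusted p = 1.1e-37). Unstimulated libraries held 62.7 and 52.6 CPM in WT and 97.98 and 97.04 CPM in KO. The states differed by 2.03 (SE 0.08, adjusted p = 1.27e-25). *Nfkbia*, which encodes the inhibitor I kappa B alpha, was at 33.02 and 31.9 CPM in WT and 79.2 and 84.1 CPM in KO, and *Relb* at 17.1 and 19.98 CPM and 32.9 and 28.8 CPM. The subunits *Nfkb1* and *Rel* were at 265 and 271 CPM and 461 and 450.1 CPM in WT and 284 and 294 CPM and 466 and 459 CPM in KO.

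Cell cycle genes, and those of G2/M above all, were lower in KO. Of 54 G2/M genes tested, 45 were lower in stimulated KO (83.3%, against 7.22% of all genes) and 0 higher by edgeR, by DESeq2 or at an unadjusted p below 0.05. At an adjusted p below 0.05 with no fold threshold 52 were lower, against 2339 of all 12208 genes. The list median was -1.25, and all 54 genes had a negative log2 fold change, from -2.48 to -0.03. *Ube2c*, which drives the exit from mitosis, was lowest, at 37.9 and 38.8 CPM in WT, 17.4 and 21.8 CPM in HZ and 7.66 and 6.08 CPM in KO, 5.59-fold lower (adjusted p = 8.12e-24). *Cenpf*, a kinetochore protein, was at 44.2 and 41.7 CPM in WT and 9.34 and 8.304 CPM in KO, and *Ccnb2*, a mitotic cyclin, at 33.1 and 35.5 CPM and 7.91 and 7.99 CPM. *Mki67*, the proliferation antigen Ki-67, was at 339 and 327 CPM in WT, 267 and 246 CPM in HZ and 116 and 114 CPM in KO, and *Top2a*, topoisomerase 2 alpha, at 272 and 270.2 CPM, 229 and 229 CPM and 111 and 111 CPM. In unstimulated KO 47 were lower, with a median of -1.33, and the difference between the states was past an adjusted p of 0.05 for 7 of the 54, positive for 6 and negative for 1. Both HZ libraries lay between KO and WT in 40 of the 54 genes and in the range of WT or above it in 10. The same was not counted over all genes.

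S-phase genes differed less. Of 43 tested, 7 were lower in KO (16.3%) and 1 higher, with a list median of -0.32. By adjusted p alone 31 were lower, against 2339 of all 12208 genes. *Rrm2*, a ribonucleotide reductase subunit, was at 150.04 and 147 CPM in WT, 161 and 162 CPM in HZ and 74.7 and 72.4 CPM in KO, 2.02-fold lower. *Clspn*, which acts at replication forks, was at 47.9 and 54.2 CPM in WT and 30.05 and 29.95 CPM in KO. *Pcna*, the sliding clamp, was at 604 and 618 CPM in WT and 458 and 466 CPM in KO, short of the fold threshold. *Chaf1b*, a histone chaperone, was the one higher gene, at 40.1 and 37.9 CPM in WT and 70.8 and 64.5 CPM in KO. Here HZ did not lie between the others: both HZ libraries were at or past the WT side in 35 of 43 genes, with no share over all genes counted. The median level relative to WT was 0.25 and 0.27 in HZ and -0.32 and -0.29 in KO on the log2 scale. Of 28 G1 regulators, 5 were lower and none higher by edgeR or by DESeq2 (2 with no fold threshold at a p below 0.05, adjusted or not). They were *Ccna2*, at 78.9 and 74.9 CPM in WT and 27.6 and 28.2 CPM in KO, *Cdkn2c* and the E2F factors *E2f2*, *E2f7* and *E2f8*. The kinases *Cdk2* and *Cdk6* fell short of the fold threshold, at 61.7 and 60.6 CPM and 335 and 319.6 CPM in WT and 56.2 and 55.1 CPM and 245 and 254 CPM in KO.

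**Figure D4:**
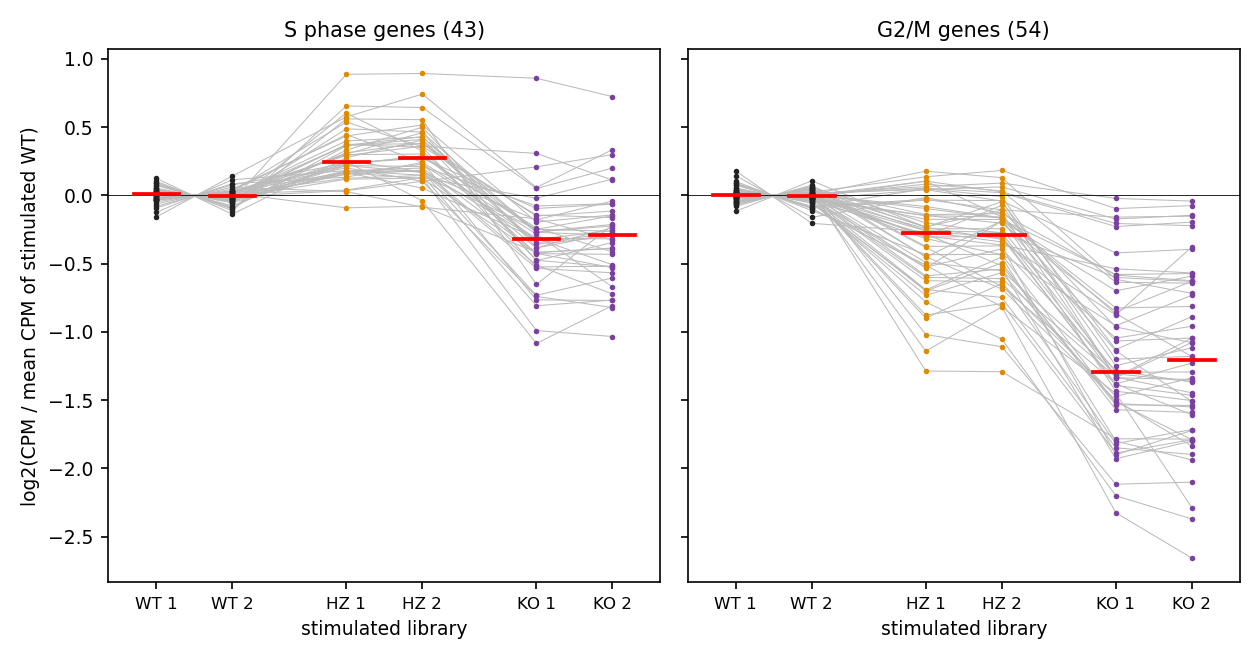
Level of 43 S-phase genes (left) and 54 G2/M genes (right) in each of the 6 stimulated libraries, as log2 of the CPM over the mean of the WT libraries. Grey lines join the points of 1 gene and red bars are medians over genes, which stand at 0.25 and 0.27 in HZ and -0.32 and -0.29 in KO for S phase and at -0.27 and -0.29 in HZ and -1.29 and -1.20 in KO for G2/M.

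Of 31 lineage factors tested, 3 were higher (9.68%, against 5.44% of all genes) and 3 lower (9.68%, against 7.22%). *Gata2* and *Mitf*, which define the mast cell fate, were at 1269 and 1279 CPM and 147 and 138 CPM in WT and at 1058 and 1036 CPM and 140.5 and 143 CPM in KO. *Runx2* was 5.06-fold lower, at 6.83 and 6.98 CPM in WT and 1.65 and 1.08 CPM in KO, and *Meis2* and *Lmo4* were lower at 7.91 and 8.13 CPM and 29.5 and 30.6 CPM in KO against 19.5 and 21.9 CPM and 64.5 and 65.7 CPM in WT. *Id3* and *Gfi1b* were higher, with *Id3* at 1.99 and 1.48 CPM in WT and 4.82 and 5.35 CPM in KO. In the stem and progenitor markers *Cd34* was lower, at 703 and 690.3 CPM in WT and 431 and 427 CPM in KO, and *Mecom* higher, at 21.3 and 22.6 CPM and 35.9 and 33.4 CPM. *Cd34* made up most of that list's summed level, which was 784 to 790 CPM in WT and 540 to 549 CPM in KO, and its part in the other differences was not tested.

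Adhesion molecules differed in both directions, with 7 of 28 higher (25.0%) and 6 lower (21.4%). *Itgb3* (16416), the beta 3 integrin that pairs with the alpha chains IIb and V, was at 6.93 and 6.98 CPM in WT, 42.6 and 38.6 CPM in HZ and 76.6 and 81.3 CPM in KO, 11.3-fold higher (adjusted p = 1.22e-34). Its partner *Itga2b* fell short of the fold threshold, at 1661 and 1678 CPM in WT and 1766 and 1767 CPM in KO. *Itgb2*, the beta 2 integrin of leukocytes, was at 11.8 and 11.7 CPM in WT and 27.9 and 26.4 CPM in KO, *Itga4* at 1.62 and 2.45 CPM and 5.79 and 7.05 CPM, and the tetraspanin *Cd81* at 4.54 and 5.31 CPM and 22.1 and 22.7 CPM. *Cd44*, the hyaluronan receptor, was lower, at 95.2 and 97.7 CPM in WT and 51.9 and 55.3 CPM in KO, as were *Icam1*, at 19.8 and 23.97 CPM and 11.8 and 13.1 CPM, and *L1cam*, at 55.2 and 49.8 CPM and 24.98 and 26.1 CPM.

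Of 23 stress genes, 5 were lower (21.7%) and 0 higher by edgeR or by DESeq2. With no fold threshold 11 were lower and 9 higher at an adjusted p below 0.05 (9 higher also at an unadjusted p below 0.05), and the list median was -0.04. Over all 12208 genes 2339 were lower and 2588 higher by adjusted p alone. *Chac1*, which degrades glutathione and is a target of ATF4, was at 181 and 196 CPM in WT, 86.1 and 78.3 CPM in HZ and 40.8 and 39.96 CPM in KO, 4.66-fold lower (adjusted p = 1.25e-28). *Trib3*, another ATF4 target, was at 61.4 and 61.8 CPM in WT and 38.2 and 39.3 CPM in KO, *Sesn2*, which restrains mTORC1, at 152 and 157 CPM and 66.8 and 68.00 CPM, and *Hmox1*, haem oxygenase 1, at 717 and 723 CPM and 416 and 416 CPM. *Dnajb1*, a heat shock cochaperone, was at 3005 and 3056 CPM and 1805 and 1792 CPM. *Chac1* was close to level before stimulation, at 8.66 and 9.95 CPM in WT and 6.37 and 9.61 CPM in KO, so the states differed by -1.99 (adjusted p = 1.58e-15). Of 26 interferon-stimulated genes, 5 were lower and 0 higher by edgeR or by DESeq2 (4 with no fold threshold at a p below 0.05, adjusted or not), with a median of -0.25. They were *Isg15*, *Rsad2*, *Ifi27l2a*, *Ifih1* and *Irf1*, all at under 15 CPM in WT. Of 20 cholesterol genes 1 was higher (5%, against 5.44% of all genes) and 0 lower by edgeR or by DESeq2 (1 with no fold threshold at a p below 0.05, adjusted or not). Of 19 antigen presentation genes *Cd86* and *Ctss* were lower (10.5%, against 7.22% of all genes) at under 1 CPM. Of 13 BCL2 family genes *Bbc3*, which encodes the death-promoting protein PUMA, was lower, at 40.8 and 44.6 CPM in WT and 22.5 and 23.4 CPM in KO, and *Bmf* higher. Each makes 7.69% of that list, against 7.22% of all genes lower and 5.44% higher. None of 9 cytokine mRNA decay factors passed both thresholds by edgeR or by DESeq2 (with no fold threshold 3 were higher and 1 lower at a p below 0.05, adjusted or not), *Zfp36*, tristetraprolin, being at 129 and 128 CPM in WT and 183 and 179.9 CPM in KO.

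**Figure D5:**
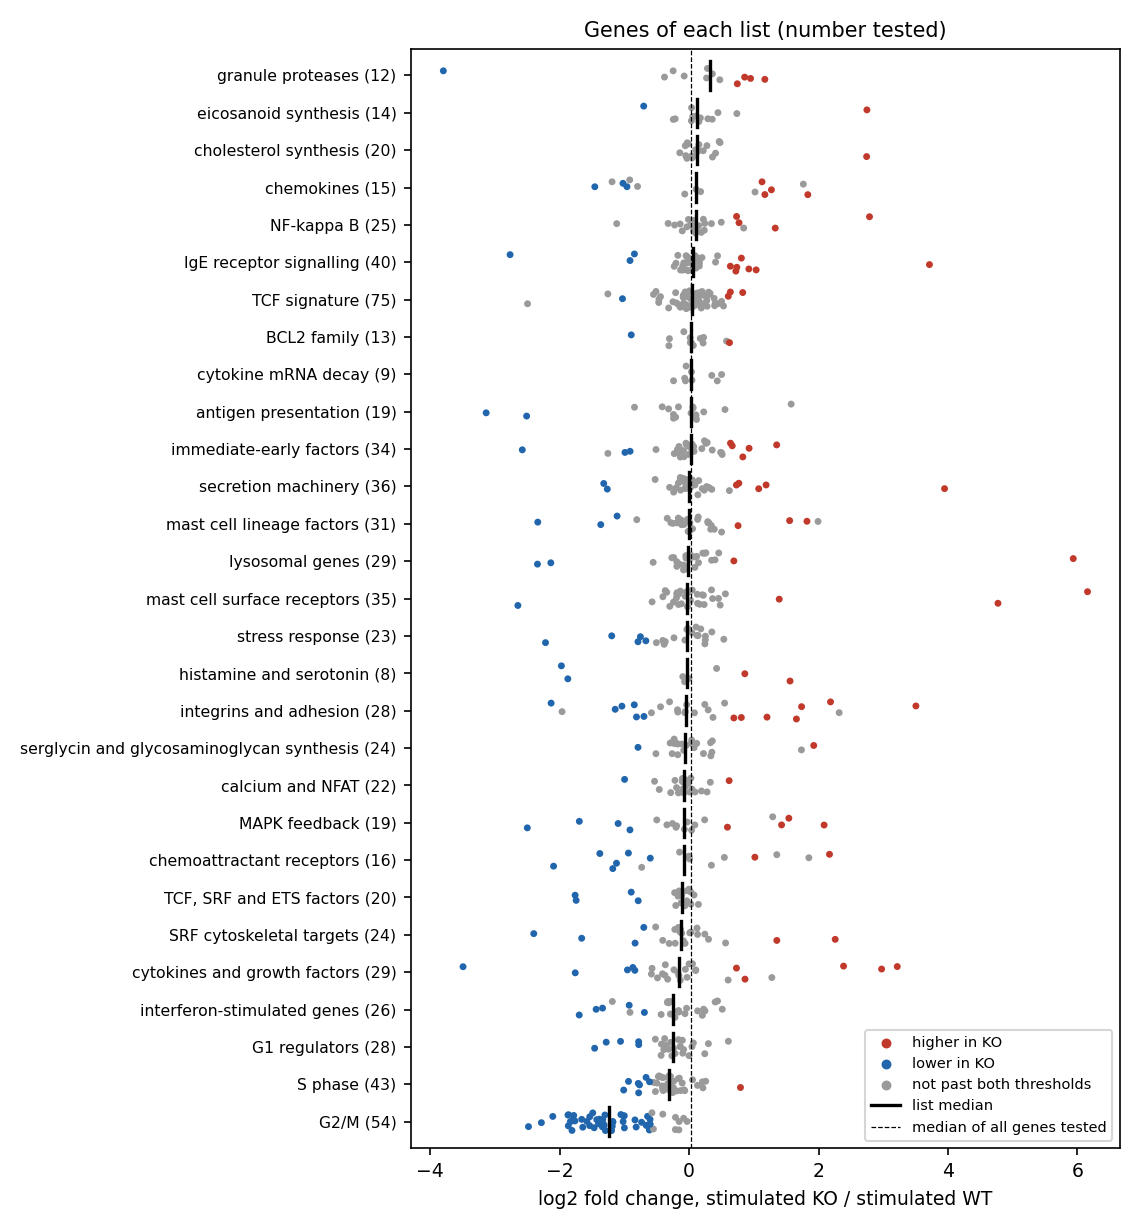
Log2 fold change of stimulated KO over stimulated WT (horizontal axis) for the genes of 29 lists, ordered by list median (black bar), with the number of genes tested in brackets. Red points were higher in KO and blue points lower, and the dashed line is the median of all 12208 genes, 0.02. G2/M genes lie apart at a median of -1.25, and the other medians lie between -0.32 and 0.32.

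Genes whose difference between KO and WT depended on stimulation were followed by the smallest adjusted p among genes that passed in stimulated cells. The 6 where KO stood higher after stimulation than before were *Ccl3*, *Ccl4*, *Klf2* and *Tnfaip3*, given above, with *Irs2* and *Epm2aip1*. *Irs2*, an adaptor of the insulin receptor, was at 328 and 319.7 CPM in stimulated WT and 657 and 632 CPM in stimulated KO, and at 202 and 201 CPM and 145 and 140.5 CPM in the unstimulated libraries, so the direction turned. *Epm2aip1*, which binds laforin, was at 88.3 and 85.6 CPM in stimulated WT and 360.5 and 358 CPM in stimulated KO, against 70.1 and 63.8 CPM and 82.2 and 85.2 CPM before. The 6 where KO stood lower were *Chac1*, *Trib3*, *Bbc3* and *Sesn2*, given above, with *Irgm1* and *Rilpl2*. *Irgm1*, an interferon-induced GTPase, was at 58.04 and 52.9 CPM in stimulated WT and 12.6 and 11.3 CPM in stimulated KO, against 21.2 and 24.1 CPM and 13.7 and 15.2 CPM before. *Rilpl2*, which binds RAB proteins, was at 92.04 and 95.96 CPM and 52.9 and 54.8 CPM after stimulation and 17.3 and 16.9 CPM and 20.9 and 19.8 CPM before. Over all genes that passed in stimulated cells, the difference was larger after stimulation in 95 of the 664 higher and 49 of the 882 lower genes, and smaller in 8 and 32. These genes were chosen by their stimulated difference, which enters this test, so the choice itself favours larger over smaller. Over all genes tested, the difference of differences was positive in 5.44% and negative in 3.83%.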

How the data were processed

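Total RNA of BMMCs was sequenced in 12 libraries, 2 in each of 6 groups (WT, HZ and KO, unstimulated or stimulated). The authors trimmed and aligned reads and counted them per gene. The submitters' processing notes name fastp, HISAT2, HTSeq and GRCm39, with no versions given in the sources used here. They deposited raw counts per gene and FPKM, which the authors scaled by gene length and depth. Groups came from the sample labels, and the members and gene lists were chosen with earlier results of these data known.

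Raw counts of 16234 genes were filtered by edgeR (4.0.16, R 4.3.3) to 12208, scaled by TMM and fitted by quasi-likelihood with all 6 groups sharing 1 dispersion (6 residual degrees of freedom). Benjamini-Hochberg adjusted p below 0.05 with a fold of at least 1.5 or at most 0.66 counted as a call. The difference of differences was tested in the same fit, by adjusted p alone. Log2 fold changes used a prior count of 0.125. The fit was tested on simulated data. Totals of 29697958 to 35531667 counts per library give a count of 0 an upper limit of about 0.1 CPM (3 counts), which covers counting error only. CPM was used within a gene and FPKM between genes. Alternatives were DESeq2 (1.42.0), limma (3.58.1) on log2 FPKM, other filters, scalings and thresholds, a replicate block, and each stimulated KO and WT library left out.

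Named genes were the 12 with the largest change in each direction among calls with no overlap and at least 100 counts in the higher group, the genes the study measured by RT-qPCR, up to 4 called members per list and direction with at least 20 counts, members whose role is described, TCFs and markers, and the 6 with the smallest adjusted p of the difference of differences in each direction. Promoters came from RefSeq (GRCm38.p6), another build than that of the counts, and were matched by NCBI Gene number. Some genes are not reported here.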

Additional observations from a re-analysis of the deposited data

Results flagged for a closer look

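The difference between KO and WT itself differed between stimulated and unstimulated cells, by the test of the difference of differences in edgeR, for 54 of the 61 genes whose test was followed here. Some of the 61 were picked by the smallest adjusted p of this same test, and the rest with earlier results known. The count is therefore no measure of how common such genes are. Over all 12208 genes tested, 5.44% were positive and 3.83% negative. All values are log2 fold changes of KO over WT after stimulation, less the same before it, with 2 libraries a group. A positive value means that KO stood higher relative to WT after stimulation than before. The smaller numbers of counts before stimulation make some of these values imprecise, and *Spp1*, at 0 counts in 1 unstimulated KO library, is the clearest case.

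It was positive for 43 genes. Among immediate-early factors it was 1.16 for *Fos*, 1.01 for *Fosb*, 0.76 for *Fosl2*, 0.79 for *Jun*, 0.73 for *Junb*, 0.22 for *Jund*, 0.92 for *Egr1*, 1.34 for *Egr2*, 0.82 for *Egr3*, 1.08 for *Egr4*, 1.47 for *Nr4a1*, 0.98 for *Nr4a2*, 1.35 for *Nr4a3*, 1.23 for *Klf2*, 0.64 for *Btg2* and 1.49 for *Csrnp1*. Among chemokines, cytokines and growth factors it was 1.81 for *Ccl1*, 0.77 for *Ccl2*, 1.68 for *Ccl3*, 1.73 for *Ccl4*, 0.82 for *Ccl7*, 0.65 for *Csf1*, 1.06 for *Lif*, 0.58 for *Il6*, 0.26 for *Osm*, 0.28 for *Tnfsf8*, 0.52 for *Gdf15* and 4.18 for *Spp1*. Among regulators of signalling it was 1.78 for *Dusp1*, 0.23 for *Dusp6*, 0.58 for *Rgs2*, 0.60 for *Relb*, 0.55 for *Nfkbia*, 2.03 for *Tnfaip3*, 0.30 for *Pag1* and 1.49 for *Irs2*. Among receptors, mediator enzymes and other genes it was 1.02 for *Hdc*, 0.24 for *Slc18a2*, 0.29 for *Ptgs1*, 0.77 for *Mrgprb1*, 0.57 for *Mrgprb2*, 1.65 for *Ccrl2* and 1.73 for *Epm2aip1*. It was negative for 11 genes, at -0.80 for *Klf10*, -0.86 for *C5ar2*, -1.92 for *Dusp2*, -0.44 for *Hmox1*, -0.42 for *Lmo4*, -1.99 for *Chac1*, -1.08 for *Trib3*, -0.98 for *Bbc3*, -1.57 for *Irgm1*, -1.06 for *Rilpl2* and -0.74 for *Sesn2*.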

How the results depend on the processing

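The counts of 664 higher and 882 lower genes moved most with the thresholds and with the scale. With no fold threshold 2588 genes were higher and 2339 lower, which takes the share of higher calls from 42.95% to 52.53%. A fold change of at least 2 left 372 and 575. Limma on log2(FPKM + 1) called 293 higher and 437 lower with a mean of at least 0.5 and 293 and 452 with no filter, and on log2(FPKM + 0.1) it called 455 and 633. The cause was not tested. DESeq2 called 634 and 886. Leaving out 1 library gave 597 to 613 higher and 785 to 825 lower genes. A replicate block gave 668 and 877, with 1537 of the 1546 calls shared. Deviations of same-numbered libraries from their group means correlated at 0.01 between stimulated WT and KO, over 9858 genes. They correlated at -0.02 between the states of WT and of KO. Pure counting error would leave paired libraries uncorrelated too, so these values do not decide whether same-numbered libraries are paired. No named gene changed sign under these settings where its adjusted p was below 0.05 in the main fit or the alternative. Changes of sign in other named genes were not counted. The balance of higher and lower calls turned with no fold threshold.

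Of 273 named genes, 30 lost the call without 1 library and 45 under another setting, mostly limma on log2(FPKM + 1). Of list counts under the alternatives that keep all libraries, 721 stayed within 1.5 times and 119 did not. The immediate-early list, at 5 higher and 3 lower, had 14 and 12 with no fold threshold and 1 and 1 at a fold of 2. The *Btg2* difference of differences was lost in DESeq2. Without WT replicate 1 or KO replicate 2 *Bmf*, *Cd14* and *Itgae* lost the call, without KO replicate 1 *Alcam* and *Ms4a7*, and without KO replicate 2 *Cxcl16*. *Ccl12*, *Cd86*, *Dusp2*, *Etv4*, *Filip1l* and *Tpm2* lost it without either of 2 or more libraries, all at low counts. Depth limits the fold of genes with 3 counts or fewer in a group, such as *Clec2i*, *Jaml* and *Vmn2r96*.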

Other observations

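Genes that differed were often next to each other. This was looked at after the values were seen, in the gene order of RefSeq (GRCm38.p6), where 12160 of the 12208 genes tested were placed. Of 662 higher genes placed, 167 (25.2%) stood beside another higher gene, against 9.58% of genes not called higher. Of 876 lower genes, 189 (21.6%) stood beside another lower gene, against 13.1% of the rest. Several runs hold genes of 1 family with similar sequences, and the part of shared reads was not tested.

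There were 14 runs of 3 or more higher genes and 8 of lower genes, the longest with 4. One run on chromosome 7 was *Tspan32*, *Cd81*, *Tssc4* and *Kcnq1*, with log2 fold changes of 4.23, 2.18, 0.62 and 4.70. The *Tssc4* call was lost without WT replicate 1 (0.49) or KO replicate 1 (0.43), which breaks this run. The Mas-related receptors *Mrgprb1*, *Mrgprx2* and *Mrgprb2* formed another on the same chromosome, at 4.77, 3.88 and 1.39. The proteases *Mcpt2*, *Mcpt4* and *Mcpt8* formed one on chromosome 14, at 1.17, 0.74 and 0.95. Among lower genes, *Cideb*, *Ltb4r2* and *Ltb4r1* stood together on chromosome 14, at -1.70, -1.18 and -2.10. Of the 10 genes on each side of *Elk4*, 2 were higher (*Ctse* and *Nuak2*) and 2 lower (*Slc41a1* and *Sox13*). The *Nuak2* call was lost without KO replicate 1 (log2 fold change 1.00) and that of *Slc41a1* without KO replicate 2 (-0.59). The nearest, *Slc45a3* and *Mfsd4a*, were not called, at 0.11 and 0.00.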
